A study of Homo sapiens with 4 samples.

Results

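The 10 genes described here encode subunits of AP-1 (activator protein 1) and close relatives: the Fos family (FOS, FOSB, FOSL1 and FOSL2), the Jun family (JUN, JUNB and JUND), and BATF, BATF3 and ATF3. They were chosen by name and located in RefSeq on GRCh38.p14, where all 10 are found among 20037 protein-coding genes. Binding of p63 was mapped by ChIP-seq in HSC-5, an established line of human cutaneous squamous cell carcinoma, grown in DMEM with 10% FBS and crosslinked with formaldehyde. The labels give 2 immunoprecipitates (IPs) with the antibody clone D9L7L and 2 input libraries, all from this 1 line, with no second genotype, treatment or time. Whether the IP replicates are separate cultures is not stated in them, and the input files were not used here. Genes are placed against the peak list of IP replicate 1, which held 3994 peaks on the chromosomes; the list of replicate 2 uses another genome numbering and enters only through a match of peak spacing.

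AP-1 is a family of basic leucine zipper (bZIP) dimers. Jun proteins pair with themselves or with Fos, BATF or ATF proteins, while Fos proteins need a partner, and the dimers bind the palindrome TGANTCA or the related TGACNTCA. Several of the genes are immediate early genes, switched on within minutes by growth factors, stress or ultraviolet light through MAP kinases. In stratified epithelium AP-1 takes part in wound response, in proliferation and in the terminal differentiation genes that basal cells keep low. p63, a relative of p53, is the transcription factor of the basal layer.

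Most members are short genes. JUNB is the shortest, at 1.83 kb, and 9 of the 10 span less than 25 kb, while ATF3 spans 55.371 kb because it has alternative starts. A peak was assigned to a gene when its summit lay in the gene's span or within a window of 10, 50 or 100 kb on either side. Each number of tags below is the whole number of sequenced tags that the authors' caller kept in the peak, with an exact Poisson interval at the 95% level that covers counting error only. The fold is the authors' ratio of IP to local control.

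With the 10 kb window 1 member of 10 had a peak, ATF3. Of all protein-coding genes 10.2% did, and of the 14295 genes no longer than ATF3, 6.51% did, so the count for the members is that of the background. With 50 kb, 4 members had a peak (ATF3, FOSL1, FOSL2 and JUN), against 19.8% of all genes and 16.8% of the short ones. With 100 kb, 7 members did (FOSB, JUND and BATF3 in addition), against 29.9% of all genes and 27.6% of the short ones. FOS, JUNB and BATF had none. By family, the 100 kb window reached 3 of 4 Fos genes, 2 of 3 Jun genes and 2 of 3 of BATF, BATF3 and ATF3. No test was run on these counts: the genes were chosen knowing, from the same list, that few such genes had a peak within 10 kb and how a wider window fared, and BATF3 and ATF3 share a peak.

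**Figure D1:**
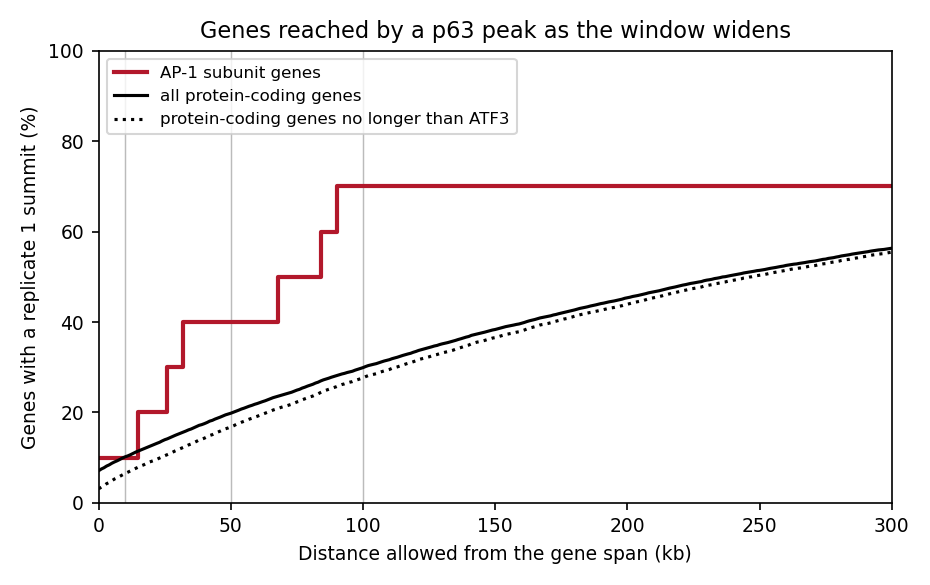
Share of genes (vertical axis, percent) with a replicate 1 summit in the span or within the distance on the horizontal axis (kb), for the 10 AP-1 subunit genes, all 20037 protein-coding genes and the 14295 genes no longer than ATF3; thin vertical lines mark 10, 50 and 100 kb. The members are at 10% with a 10 kb window, where all genes are at 10.2%, climb to 70% (7 of 10) by 90 kb and stay there to 300 kb.

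Because the scarcity of peaks within 10 kb was known when the genes were chosen, the split of their peaks at 10 kb is a description and supports nothing. The 7 members had 9 distinct peaks within 100 kb. Of these, 1 lay inside a member, 5 lay 10 to 50 kb outside the nearest member and 3 lay 50 to 100 kb outside; none lay in the first 10 kb beyond a span. Counted as pairs of a gene and a summit, 9 of 10 pairs (90%) lay more than 10 kb out, against 70.2% over all protein-coding genes and 80.9% over the short ones, so a large distal share also holds for other short genes. Per 100 kb of flank, the ring from 10 to 50 kb held 0.625 summits around the members and 0.157 around all genes. The ring from 50 to 100 kb held 0.400 and 0.159. The ring within 10 kb, where the low count was known beforehand, held 0 and 0.174. The first of these rates rests on 5 pairs at FOSL1, FOSL2 and JUN, and 2 of the 5 are a close pair of peaks. The peak inside ATF3 is counted again at BATF3, among the 9 distal pairs and the 4 pairs of the 50 to 100 kb ring. The median distance to the nearest summit was 75.5 kb for the members, 237 kb for all genes and 247 kb for the short ones. How a wider window fared was also known when the genes were chosen. The rates of the outer rings and the median distance are therefore descriptions and support nothing either.

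**Figure D2:**
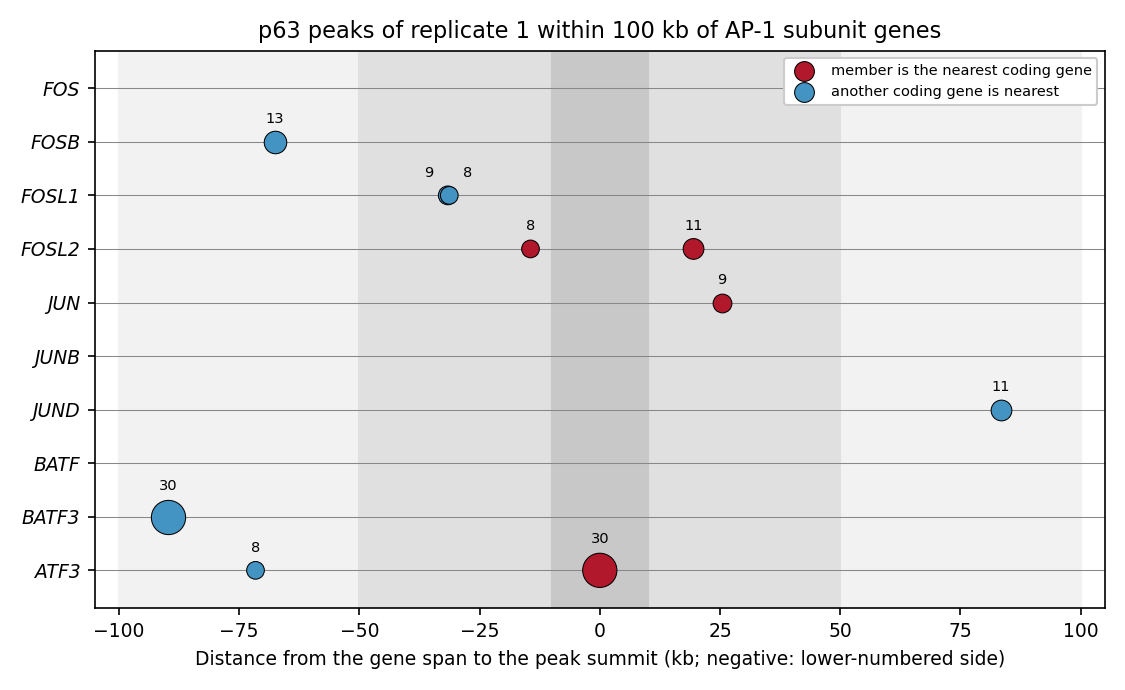
Replicate 1 peaks within 100 kb of each AP-1 subunit gene, by distance of the summit from the gene's span (horizontal axis, kb; negative on the lower-numbered side of the chromosome, and a summit inside the span is at 0). Circle area is proportional to the tags in the peak, printed above it; red circles have that member as their nearest protein-coding gene and blue circles another gene; shading marks 10, 50 and 100 kb. The 30-tag peak inside ATF3 appears again on the BATF3 line at 89.8 kb, and the lines of FOS, JUNB and BATF are empty.

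ATF3 encodes a stress-induced repressor and activator of the ATF family and is a known target of p53. It held the strongest peak of the set, at chr1:212596443-212596686, with 30 tags (20.2 to 42.8), a fold of 34.79 and a width of 244 bp. Only 93 of the 3994 peaks (2.33%) had a fold as high, and 422 (10.6%) had as many tags. The RefSeq start list used here gives ATF3 positions 212565407 and 212615018. It has no entry for FOSL1 or BATF3, so other ATF3 starts may be missing from it. The summit lay between the listed positions, 31.171 kb downstream of the first and 18.44 kb upstream of the second. This peak is therefore inside the gene and at neither listed position. The later position may be an exon boundary and not a promoter, as described with its sequence below. A second, weak peak of 8 tags (3.45 to 15.8) and a fold of 12.98 lay 71.589 kb before the gene, nearer to NENF (47.439 kb). BATF3, a partner of Jun proteins known from dendritic cells, lies 65.64 kb beyond ATF3, with GARIN4 between them and no summit in the gap. The 1 peak of BATF3 within 100 kb was the ATF3 peak, at 89.839 kb, and the next on its other side lay 1518 kb away.

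**Figure D3:**
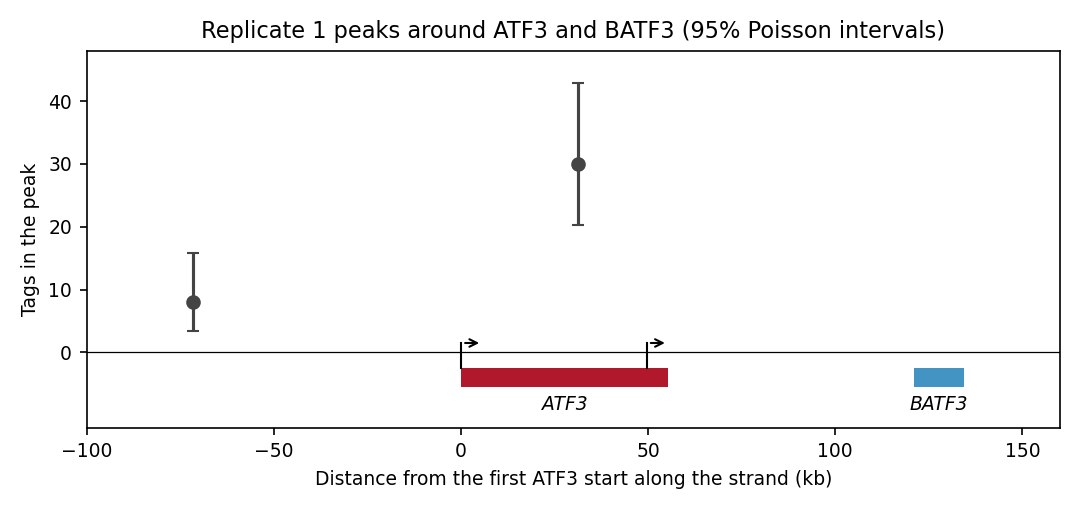
Tags (vertical axis) of the replicate 1 peaks around ATF3, with exact 95% Poisson intervals, by distance from the first ATF3 start along its strand (horizontal axis, kb). Bars below the line show the spans of ATF3 and BATF3 and arrows the listed RefSeq starts of ATF3, which may not be all. The 30-tag peak lies between the listed starts and the 8-tag peak 71.6 kb before the first.

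The stretches of 300 bases around the listed ATF3 starts (250 before each and 50 after) are shown because they flank that peak on either side. The genome sequence under the peak itself was not used here. Capitals mark TGACNTCA. The first is chr1:212565157-212565456 and the other chr1:212614768-212615067, both on the plus strand of GRCh38.p14, from RefSeq. In the other, ttcag ends the 250 bases before the listed position and atgatg follows soon after it. That is the form of an intron's end and a coding exon, so this stretch may not be promoter sequence.
ATF3, first start: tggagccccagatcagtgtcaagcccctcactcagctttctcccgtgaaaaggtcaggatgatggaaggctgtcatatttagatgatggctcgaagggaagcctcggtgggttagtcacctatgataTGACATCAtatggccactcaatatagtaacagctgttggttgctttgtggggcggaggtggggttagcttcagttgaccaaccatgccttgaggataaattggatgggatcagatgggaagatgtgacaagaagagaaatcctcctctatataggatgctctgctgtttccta
ATF3, other start: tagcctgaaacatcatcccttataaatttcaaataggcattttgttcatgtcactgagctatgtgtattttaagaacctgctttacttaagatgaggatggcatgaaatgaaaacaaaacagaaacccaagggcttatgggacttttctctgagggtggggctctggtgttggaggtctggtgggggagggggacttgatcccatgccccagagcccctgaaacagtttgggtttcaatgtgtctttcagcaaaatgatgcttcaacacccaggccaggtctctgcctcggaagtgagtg

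FOSL2 encodes Fra-2, a Fos protein of the epidermis that is known from mice to hold back late differentiation genes. It was flanked by peaks on either side. At chr2:28436738-28436902, 19.493 kb beyond the gene, lay a peak of 11 tags (5.49 to 19.7) with a fold of 22.14, as high as in 406 peaks (10.2%). At 165 bp it was the narrowest of the 9. At chr2:28378301-28378524 lay a weaker one of 8 tags (3.45 to 15.8), fold 11.35, 14.409 kb upstream of the start. The intervals of the tag counts overlap, so the order of these peaks by tags is within counting error. FOSL2 was the nearest protein-coding gene to both peaks, with BABAM2 39.548 kb from the weaker and PLB1 59.25 kb from the stronger. The summit of the weaker peak lay inside LOC105374383, a gene that is not protein-coding.

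JUN, the founding Jun protein and the partner of most Fos dimers, had 1 peak at chr1:58809300-58809539, with 9 tags (4.12 to 17.1), a fold of 15.13 and a width of 240 bp. It lay 25.361 kb upstream of the JUN start, inside JUN-DT, the divergent noncoding gene that begins beside JUN and is read away from it. JUN was its nearest protein-coding gene, and the next, MYSM1, lay 109.346 kb away. This peak was ordinary in strength: 74.1% of all peaks had as many tags and 39.1% as high a fold.

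The remaining peaks near members lay in or nearest to other genes. FOSL1 encodes Fra-1, a Fos protein that is abundant in invasive carcinoma cells. Its 2 peaks of 9 tags (4.12 to 17.1, fold 13.51) and 8 tags (3.45 to 15.8, fold 12.98) lay 31.609 and 31.296 kb away, with summits 313 bp apart. Both were inside MUS81, the gene of a DNA repair nuclease, and the summit of the first lay 7 bp from the MUS81 start at position 65860433. The first peak is chr11:65860282-65860529 and the second chr11:65860682-65860914. The window of 100 kb around FOSL1 overlaps 14 other protein-coding genes, as many as around JUNB.

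The part of the MUS81 start window that the first peak covers, chr11:65860282-65860482 on the plus strand of GRCh38.p14, is shown because it is the only stretch of these 9 peaks that the RefSeq start windows hold. Capitals mark the 20 bases closest to the p53 family response element, with 3 mismatches.
MUS81 start: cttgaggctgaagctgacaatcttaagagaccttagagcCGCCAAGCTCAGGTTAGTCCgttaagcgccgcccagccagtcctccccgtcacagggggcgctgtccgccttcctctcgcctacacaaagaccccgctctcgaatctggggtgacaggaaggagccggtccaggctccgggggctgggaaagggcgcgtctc
This closest match lies 100 bp from the summit. Of all 35116 RefSeq start windows of 300 bases, 5.20% hold a match with at most 3 mismatches. Those windows are longer than the 201 bases searched here, so the share is not a like background.

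FOSB, a Fos protein best known from lasting stimulation of neurons, had 1 peak 67.531 kb upstream of its start, at chr19:45400364-45400608. It was the second strongest of the set, with 13 tags (6.92 to 22.2) and a fold of 25.95, which 261 peaks (6.53%) matched or exceeded. The peak lay inside PPP1R13L, which encodes iASPP, an inhibitor of p53 expressed in epidermis. Its summit was 4.604 kb from the nearer RefSeq start of that gene, and 8 protein-coding genes other than FOSB overlap the window.

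JUND, the Jun protein that is present in resting cells, had 1 peak 83.398 kb upstream of its start, at chr19:18364836-18365124. This peak had 11 tags (5.49 to 19.7), a fold of 18.17 and, at 289 bp, the largest width of the set. It lay inside PGPEP1, a peptidase gene, and 21.138 kb from GDF15, a secreted stress factor and known p53 target. Of the 9 peaks, 4 had a member as their nearest protein-coding gene (at ATF3, FOSL2 and JUN), 4 lay inside another protein-coding gene and 1 was nearer to NENF. The data do not say which gene a distal peak acts on, and expression was not measured.

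**Figure D4:**
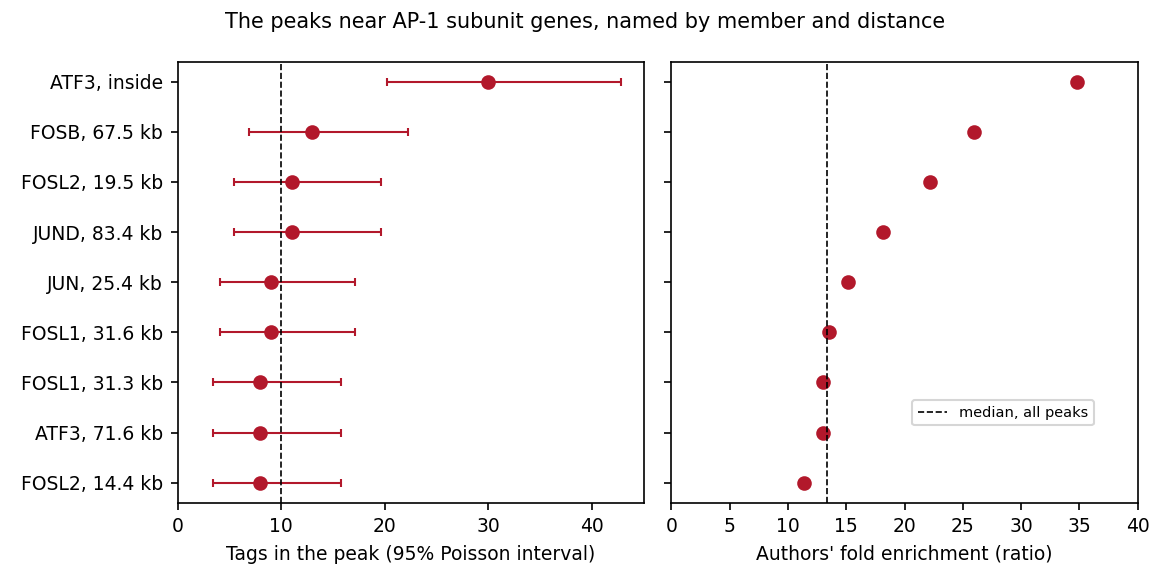
Tags with exact 95% Poisson intervals (left) and the authors' fold enrichment (right) of the 9 replicate 1 peaks within 100 kb of an AP-1 subunit gene, each named by its nearest member and the distance; dashed lines are the medians of all 3994 peaks on the chromosomes (10 tags and a fold of 13.36). The interval of the ATF3 peak, from 20.2 tags, lies above 10 tags, and those of the other 8 include it.

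In strength and width the medians of the 9 peaks were close to those of the whole list. Their median was 9 tags (range 8 to 30), against 10 tags for all peaks. Their median fold was 15.13 (range 11.35 to 34.79), against 13.36, and their median width 244 bp (165 to 289), against 245 bp. Of the 9, 3 were at the list's minimum of 8 tags, as were 25.9% of all peaks. A score of 100 or more was reached by 2 of them, at ATF3 and FOSB, and by 15.5% of all peaks. With such peaks alone the 100 kb window reached 3 members of 10 (ATF3, BATF3 and FOSB), against 7.42% of all genes, and 2 of these 3 share the ATF3 peak.

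The 3 members without a peak lay in summit-free stretches of 1.61 and 5.49 Mb, which were not set against the other gaps of the list. FOS, the prototype immediate early gene, and BATF, a partner of Jun proteins in lymphocytes, sit 240.239 kb apart on chromosome 14 with JDP2, a Jun dimerization partner, between them. Both lay in the same summit-free stretch of 1.61 Mb with 24 protein-coding genes. Its nearest peak, of 8 tags in TTLL5, was 603.9 kb from FOS and 339.138 kb from BATF. Chromosome 19, which holds JUNB, had 9.30 peaks per 100 protein-coding genes, against 19.9 over all chromosomes. JUNB, the Jun protein that restrains keratinocyte inflammation in mice, lay in a stretch of 5.49 Mb with 163 protein-coding genes, with the nearest peak, of 10 tags in DNAJB1, 1733 kb away. A summit lay as near as that to 92.2% of all protein-coding genes, as near as FOS had to 74.3% and as near as BATF had to 59.7%. A weak site at these genes would not have been listed at this depth, since the smallest peak of replicate 1 held 8 of its 12687447 kept tags.

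The member starts listed in the RefSeq start windows carried no peak. The list may lack other starts, and the later ATF3 position may be an exon boundary. RefSeq start windows of 300 bases matched 8 of the 10 members by symbol, 9 windows in all, and FOSL1 and BATF3 are named only. Distances taken from those starts in place of the span left 0 of the 8 members with a summit within 10 kb, against 4.03% of all genes with a start, 3 within 50 kb, against 14.9%, and 5 within 100 kb, against 25.4%. Of the 6 peaks outside the spans of these members, 5 were upstream of the start and 1, at FOSL2, lay beyond the gene's far end. In the windows TGANTCA occurred at FOSL2 and TGACNTCA at JUN, JUND and the first ATF3 start, searched on both strands, and each is in 7.71% and 7.72% of all RefSeq start windows. No member window held the p53 family element with at most 3 mismatches (the closest had 5), which says nothing of the distal peaks.

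The windows of FOSL2 (chr2:28392608-28392907, plus strand), JUN (chr1:58783998-58784297, minus strand) and JUND (chr19:18281573-18281872, minus strand) are printed below. They were picked because these members had distal peaks and a match to TGANTCA or TGACNTCA at their own start, in capitals.
FOSL2: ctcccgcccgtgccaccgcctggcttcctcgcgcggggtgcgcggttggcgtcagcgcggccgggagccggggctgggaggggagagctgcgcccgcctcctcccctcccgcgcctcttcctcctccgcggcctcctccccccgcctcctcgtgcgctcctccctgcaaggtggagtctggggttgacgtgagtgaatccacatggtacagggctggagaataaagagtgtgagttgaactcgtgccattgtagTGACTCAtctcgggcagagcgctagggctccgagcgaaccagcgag
JUN: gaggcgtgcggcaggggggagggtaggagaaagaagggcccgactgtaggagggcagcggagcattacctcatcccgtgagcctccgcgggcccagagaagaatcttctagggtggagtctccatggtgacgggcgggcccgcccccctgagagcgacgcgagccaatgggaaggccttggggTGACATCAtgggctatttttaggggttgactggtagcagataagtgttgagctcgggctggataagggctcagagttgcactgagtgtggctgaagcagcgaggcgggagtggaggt
JUND: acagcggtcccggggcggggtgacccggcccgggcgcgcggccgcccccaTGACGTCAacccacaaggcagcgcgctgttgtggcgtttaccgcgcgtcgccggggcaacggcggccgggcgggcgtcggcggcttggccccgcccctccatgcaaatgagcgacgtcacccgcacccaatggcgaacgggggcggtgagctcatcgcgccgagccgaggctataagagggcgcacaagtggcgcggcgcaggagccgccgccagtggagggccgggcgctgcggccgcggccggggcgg

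None of the 9 peaks had a counterpart in replicate 2 by spacing, in a match that paired 210 peaks, or 5.42% of the 3875 replicate 1 peaks under 1 kb wide. Replicate 2 kept 868393 tags, 6.84% of replicate 1. Scaled to that depth, the 30 tags of the ATF3 peak come to 2.05 and the median of 9 tags to 0.616, both under the 4 tags of the smallest peak in the replicate 2 list. A difference between the replicates at these sites was therefore not detectable at this depth, and the 9 peaks rest on 1 library.

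Genes around AP-1 in the pathway were taken from 4 further lists, whose counts stand beside 10.2%, 19.8% and 29.9% of all genes at 10, 50 and 100 kb. Of 26 other bZIP partners and relatives, 4 had a peak within 10 kb, 6 within 50 kb and 9 within 100 kb, or 15.4%, 23.1% and 34.6%. DDIT3 (CHOP), a stress-induced partner, had the strongest of these within 10 kb, 32 tags (21.9 to 45.2) and a fold of 44.27 at 1.817 kb. NFE2L1, CREB5 and MAF had peaks of 8 or 9 tags as their strongest within 10 kb. JDP2, like its neighbours FOS and BATF, had none within 100 kb. Of 28 genes of the MAP kinase route to AP-1, 3 had a peak within 10 kb, 5 within 50 kb and 11 within 100 kb, or 10.7%, 17.9% and 39.3%. The 3 are the kinases MAPK10 with 15 tags, MAP3K1 with 9 and MAPK14 with 8.

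Of 24 other immediate early genes, 4 had a peak within 10 kb, 6 within 50 kb and 7 within 100 kb, or 16.7%, 25% and 29.2%. The 4 are IER5 with 17 tags (9.90 to 27.2), KLF6 with 11, BTG2 with 9 and NR4A1 with 8. Of 30 AP-1 target genes of skin, which include matrix proteases, growth factors and envelope proteins, 3 had a peak within 10 kb, 10 within 50 kb and 17 within 100 kb, or 10%, 33.3% and 56.7%. Within 10 kb, the membrane protease MMP14 had a peak of 12 tags and the integrin ITGA5 one of 10. Of the AP-1 subunit genes 10%, 40% and 70% had a peak in these windows. Neighbouring genes share peaks: MMP1, MMP3, MMP10 and MMP13 lie near 1 peak of 12 tags. The difference between these shares was not tested.

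The pattern of 6 members, a summit 10 to 100 kb out and none nearer, was seen at 21.1% of the 14295 genes no longer than ATF3. Among those, FOSL1 and FOSL2 had 2 summits in the ring, as did 504 genes (3.53%), and the others of the 6 had 1, as did 2420 (16.9%). The genes with the most such summits were LOC124905553, LOC124905557, OR4F16 and SLC26A2, with 6 each. Another 6 genes had 5, of which ACTL9 is the first by symbol. Peaks near the members held 8 to 30 tags, while the first 3 of these genes share peaks at the start of chromosome 1 that hold up to 638 tags at folds of 3.4 to 16.71. SLC26A2, a sulfate transporter gene, had peaks of 9 to 19 tags and folds of 10.46 to 24.55.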

How the data were processed

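Peaks had been called by the authors for each IP alone with MACS 1.4.2, per the file headers, against 1 control, at a p cut-off of 1e-05 with 1 tag kept per position and the larger library scaled to the smaller. FastQC, Trimmomatic and Bowtie are named in the submitters' processing notes. The authors' count of tags per peak is raw. Per the file headers, the score equals the log10 of the p-value times minus 10, the fold enrichment is a ratio to the scaled local control, and the false discovery rate is given as a percent. Widths and summit offsets, per the file headers, are in bp.

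Replicate 1 had 22139487 IP tags (12687447 kept) and 4077 peaks; replicate 2 had 4089280 (868393 kept) and 2934. The notes name hg19. In replicate 1, however, 83 peaks lay on contigs named as in GRCh38 and 0 beyond the last coding gene of a chromosome, against 31 in replicate 2. Replicate 1 was therefore read as GRCh38; replicate 2 was set against no gene, and coordinates were left in their own numbering. The 3 sheets of replicate 1 hold the same peaks, and none of the authors' 22 hand-written notes is at a peak near a member.

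Summits were assigned to gene spans in a RefSeq table with Python 3.11.15 and pandas 2.3.3. Peaks of the replicates were matched when their summit offset recurred within 100 bp in 2 other pairs under 10 Mb away. Both steps were tested on simulated data, with summits planted at set distances and with planted pairs. The planted pairs outnumbered those matched here, so the share of true pairs that the match finds in these lists is not known. Members, lists and windows were chosen with earlier results of these data known. All members are named, and genes of the other lists with a summit within 10 kb, of which 1 is not reported here; JDP2 and the matrix protease cluster were named after their values were seen. Alternatives were score, fold, tag and width limits, any overlapping base, distance from starts and another sheet.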

Additional observations from a re-analysis of the deposited data

How the results depend on the processing

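Of 60 alternative values, 53 stayed as reported, counts within 1.5 times and shares and medians within their 95% intervals (51.8 to 99.7% for the distal share). Many of the 53 could not have moved, so this tally does not measure robustness. Replicate 2 enters none of the window results, and the other sheet holds the same peaks. All 9 peaks passed the fold limit of 10 and the width limit of 1 kb (lowest fold 11.35, largest width 289 bp). A score of 100 or more left 2 peaks near members. It left 1 member with a peak within 50 kb and 3 within 100 kb, a distal share of 50.0% and a median of 21.5 tags. Distance from the start, in the 8 members with one, left 0 members within 10 kb and made the distal share 100%. These shifts follow from fewer peaks and from measuring to starts. Limits on fold, tags or width, any overlapping base and another sheet moved no count by over 1.5 times. Replicate 2 alone gave no value, since it was not placed on genes, and leaving it out changed nothing. No match to replicate 2 appeared with 1 supporting pair, a tolerance of 50 bp, a block of 5 Mb or all widths. No paired analysis was possible because no input values entered the results and replicate 2 was not placed on genes. The results come from no test. All counts rest on 1 library and on peaks of 8 or more tags.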
